A study of Homo sapiens with 18 samples.

Results

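The genes described here were 45 genes of the lysosome and of autophagy, measured by RNA-seq in NCI-H1299 cells that overexpressed TBX2, TBX3, TBX4 or TBX5. They comprised 11 lysosomal proteases, 7 glycosidases and lipid-handling proteins, 3 membrane proteins, 16 genes of the vacuolar H+-ATPase (V-ATPase), 3 transcription factors and 5 autophagy genes. Each was looked up by its Ensembl identifier, and 45 of 45 were found among the 63677 genes of the count table. The members were chosen by symbol, on a list drawn up with the fold changes and adjusted p-values of these comparisons already known, so the values below describe these genes and support no statement about the list as a whole. A gene was tested when 10 or more of the 18 libraries each held over 5 counts of it, which was true of 43 of the 45 genes and of 15576 genes in all. The genes that fell short were ATP6V0C, with 0 to 5 counts per library, and TFEB, with 3 to 17.

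Lysosomes break down proteins, lipids and sugars with hydrolases that work at acidic pH, and the pH is set by the V-ATPase, a rotary pump whose cytosolic V1 sector splits ATP and whose membrane-bound V0 sector carries protons. Autophagy encloses cytoplasm in vesicles that fuse with lysosomes. The vesicle membranes carry lipid-linked proteins of the LC3 and GABARAP family, and receptors such as SQSTM1 bring cargo to them. Many of these genes share a promoter motif, the CLEAR element, which is bound by the related transcription factors TFEB, TFE3 and MITF when these are in the nucleus.

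NCI-H1299 is a human lung cancer line, labelled lung adenocarcinoma. The cells were grown in low-glucose DMEM with serum, and total RNA was sequenced. Plasmids were given by transient transfection with a lipid reagent, so a culture that received one can hold transfected and untransfected cells. Of 6 groups with 3 libraries each, the TBX2 and TBX4 groups received Flag-tagged human cDNAs, the TBX3 group an HA-tagged human cDNA and the TBX5 group an HA-tagged mouse Tbx5 cDNA. The EV group received an empty vector, whose backbone is not given in the sources used here, and the Ctl group's treatment is not named in the labels; these 6 libraries were pooled as the controls. The question of each comparison was which genes a single TBX changes in these cells.

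Total counts per library ran from 7365221 to 11743179 (median 9167758). Levels are given as CPM, the counts of a gene scaled to a common library size, after edgeR's TMM method, which sets a factor per library to align the bulk of the genes, and 3 counts corresponded to 0.192 to 0.595 CPM. Values of a TBX group are listed for replicates 1, 2 and 3, and for the 6 controls the lowest, the median and the highest are given. Fold changes are log2 values with their standard error (SE). Genes were called differentially expressed (DEGs) at an adjusted p under 0.1 in edgeR's quasi-likelihood test, with the Benjamini-Hochberg adjustment over all genes tested. Nothing in the labels says that replicates were separate cultures, so these p-values measure the spread between these libraries alone, part of which may be technical. In bulk RNA, fewer cells of a type and less RNA per cell cannot be told apart, and a count floor covers counting error only.

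The libraries were first checked against their labels. The transfected gene was high in its own group: TBX2 reached 4086, 4821 and 4497 CPM in the TBX2 libraries, TBX3 reached 17745, 25411 and 22559 CPM in the TBX3 libraries, and TBX4 reached 7543, 8497 and 7888 CPM in the TBX4 libraries. Reads at human TBX5, which come from a mouse cDNA, stood at 128.8, 230.8 and 242.3 CPM in the TBX5 libraries and at 0 in the controls. TBX3 also stood at 13.2, 7.74 and 9.86 CPM in the TBX5 libraries and at 6.57, 6.69 and 6.85 CPM in the TBX4 libraries, against 1.37 to 3.33 CPM in the controls. TBX4 stood at 1.95, 1.91 and 1.79 CPM in the TBX2 libraries, 0.917, 1.51 and 0.422 CPM in the TBX3 libraries and 1.22, 3.57 and 1.49 CPM in the TBX5 libraries, against 0 to 0.0992 CPM in the controls. TBX4 replicate 3 is titled 4c-TBX5, so that its number places it with the TBX4 libraries while its title ends in TBX5. This library held 85197 counts of TBX4 and 1 count of TBX5, and it is kept with TBX4 below. A single gene, ENSG00000266658, took a variable share of the counts. It held 34.5%, 30.3% and 40.2% in Ctl, 32.7%, 34.7% and 12.4% in EV, and 19.6%, 28.2% and 40.5% in TBX2. In TBX3 it held 38.5%, 47.5% and 10.7%, and in TBX5 22.5%, 53.5% and 52.7%. EV replicate 3, TBX3 replicate 3 and TBX5 replicate 1 therefore stood apart from the other libraries of their groups, and the TBX4 libraries (13.2%, 14.8% and 18.6%) lay below 5 of the 6 controls. Results are given with and without these libraries.

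The labelled cell type was compared with marker genes. Of 5 epithelial markers, KRT18 and KRT8 averaged 70.2 and 37.7 CPM in the controls, whereas KRT19, EPCAM and CDH1 lay at or below 0.198 CPM in each control. The mesenchymal marker VIM averaged 897.4 CPM. The 4 alveolar markers were near the count floor, with SFTPC at no more than 0.0992 CPM, NKX2-1 at no more than 0.128 CPM, SFTPB at no more than 0.574 CPM and NAPSA, the most abundant, at 0.229 to 0.859 CPM in the controls. Together they summed to 0.343 to 1.02 CPM in the controls, to 1.38, 1.31 and 1.30 CPM with TBX2, above each control, and to 1.18, 1.36 and 0.633 CPM with TBX3. Their sums were 0.881, 0.778 and 0.741 CPM with TBX4 and 0.999, 1.19 and 0.558 CPM with TBX5. The 6 macrophage and leukocyte markers summed to 0.571 to 1.67 CPM in the controls, where CSF1R was the most abundant at a mean of 0.801 CPM and MARCO was at 0. Their sums were 2.18, 1.91 and 1.79 CPM with TBX2, also above each control. They were 2.23, 2.41 and 1.41 CPM with TBX3, 2.08, 1.56 and 1.39 CPM with TBX4, and 1.66, 1.19 and 1.12 CPM with TBX5. The 5 epithelial markers together, of which KRT18 was the most abundant in the controls, fell from 96.5 to 114.1 CPM in the controls to 66.4, 74.5 and 67.4 CPM with TBX2 and to 85.0, 81.0 and 77.0 CPM with TBX3. They stood at 99.2, 99.1 and 84.2 CPM with TBX4 and at 101.6, 112.5 and 126.5 CPM with TBX5. The mesenchymal markers VIM, CDH2 and FN1, of which VIM was the most abundant, summed to 924.9 to 1038 CPM in the controls. Their sums lay below each control with TBX2 (804.4, 764.3 and 821.7 CPM) and TBX3 (848.1, 813.6 and 832.7 CPM). With TBX4 they were 899.3, 862.9 and 932.7 CPM and with TBX5 972, 880.6 and 873.7 CPM. Any part of these shifts in the results below was not tested. The lysosome markers LAMP1 and LAMP2, membrane proteins of the organelle, and CTSD, its aspartic protease, were present in each library.

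Levels in the controls were compared between genes per kilobase of the canonical transcript (RPKM), as means of 6 libraries. The highest RPKM levels were those of SQSTM1, an autophagy receptor that is itself degraded, at 48.6, and PSAP, the precursor of the saposins that help lipid hydrolases, at 47.4. NPC2, a cholesterol carrier, and the V1 subunits ATP6V1E1 and ATP6V1D followed at RPKM levels of 32.9, 32.8 and 32.8. In the same scale, levels were 29.0 for CTSC, a dipeptidyl peptidase, 19.0 for MAP1LC3B, 15.6 for LAMP1, 9.09 for CTSD and 5.63 for LAMP2. Of the transcription factors, TFE3 had an RPKM level of 8.99, against 0.329 for TFEB and 0.176 for MITF. The proteases CTSK and CTSS, known from osteoclasts and antigen-presenting cells, were at RPKM levels of 0.849 and 0.332. ATP6V0C, the proteolipid of the proton channel, had 0.119 RPKM, but 98.8% of its exon length overlaps other genes and it has 4 pseudogenes. Reads that fall in several genes or fit several places may therefore be missing from its count. Overlap likewise makes the levels of CTSD (62.1% of exon length overlapped), SQSTM1 (55.7%), WIPI1 (28.3%), CTSA (24.1%), ATP6V1F (23.2%) and HEXA (21.7%) uncertain, as do 8 pseudogenes for CTSL and 7 for ATP6V1G1. The overlaps were read from GENCODE 44 and not from the annotation used for counting.

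**Figure D1:**
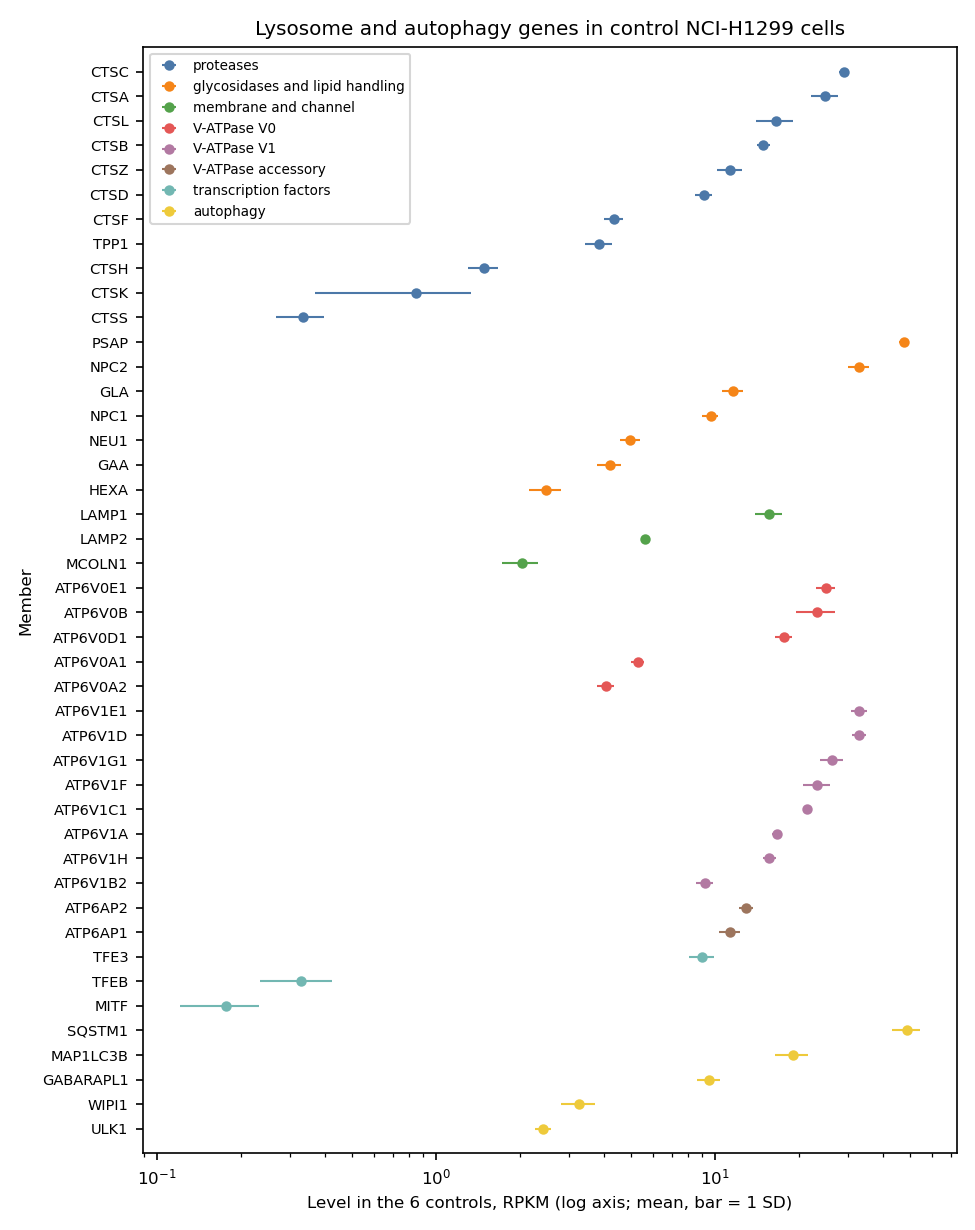
Level of 44 of the 45 genes in the controls in RPKM (horizontal log axis; points are means of the 6 controls, bars 1 SD), with genes on the vertical axis coloured by role; ATP6V0C is left out because some libraries held 0 counts. SQSTM1 at 48.6 and PSAP at 47.4 RPKM lie to the right, and TFEB at 0.329 and MITF at 0.176 RPKM to the left.

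Promoters were read for the members with a window available. Sequences are shown for some that moved together in the TBX groups and for the calcium channel gene MCOLN1. RefSeq promoter windows (GRCh38.p14), from 250 bases before to 50 bases after the transcription start, were available for 34 of the 45 genes. Both strands were searched for the E-box CACGTG, for TCACGTGA, the longer core of the CLEAR element, which contains the E-box, and for the T-box site core GGTGTGA. The E-box was present in 10 of the 34 windows (29.4%) and in 7.43% of all 27305 promoter windows. TCACGTGA was present in 6 of 34 (17.6%, against 1.04% of all windows), and GGTGTGA in 0 of 34 (against 3.43% of all windows). The E-box was found for the proteases CTSA, CTSD and CTSF, for GAA and NEU1, for LAMP1 (6 matches) and MCOLN1, and for ATP6V0B, ATP6V0D1 and ATP6V1G1. The 250 bases before the start are shown for NEU1 (chr6:31862822-31863071, minus strand), ATP6V0B (chr1:43974710-43974959, plus strand), MCOLN1 (chr19:7522374-7522623, plus strand), MAP1LC3B (chr16:87392086-87392335, plus strand) and GABARAPL1 (chr12:10212627-10212876, plus strand), so that promoters with and without the letters can be compared. Capitals mark CACGTG, and in MCOLN1 the longer TCACGTGA around it. CACGTG begins 126 bases before the start in NEU1, 57 and 39 bases before it in ATP6V0B and 41 and 14 bases before it in MCOLN1.
NEU1: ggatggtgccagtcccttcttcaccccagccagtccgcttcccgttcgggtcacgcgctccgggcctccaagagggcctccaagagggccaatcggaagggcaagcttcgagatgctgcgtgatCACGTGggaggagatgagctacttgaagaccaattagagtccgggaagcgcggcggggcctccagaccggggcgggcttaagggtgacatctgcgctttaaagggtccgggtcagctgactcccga
ATP6V0B: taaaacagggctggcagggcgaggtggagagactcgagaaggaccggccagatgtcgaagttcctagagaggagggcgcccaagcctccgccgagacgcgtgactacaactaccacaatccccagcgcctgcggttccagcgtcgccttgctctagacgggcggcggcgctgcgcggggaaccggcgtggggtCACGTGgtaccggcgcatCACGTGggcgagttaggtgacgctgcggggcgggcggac
MCOLN1: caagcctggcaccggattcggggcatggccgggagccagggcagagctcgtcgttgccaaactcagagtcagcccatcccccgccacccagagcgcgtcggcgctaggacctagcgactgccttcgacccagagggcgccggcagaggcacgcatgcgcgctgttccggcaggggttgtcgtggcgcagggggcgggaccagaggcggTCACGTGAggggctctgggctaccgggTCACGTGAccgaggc
MAP1LC3B: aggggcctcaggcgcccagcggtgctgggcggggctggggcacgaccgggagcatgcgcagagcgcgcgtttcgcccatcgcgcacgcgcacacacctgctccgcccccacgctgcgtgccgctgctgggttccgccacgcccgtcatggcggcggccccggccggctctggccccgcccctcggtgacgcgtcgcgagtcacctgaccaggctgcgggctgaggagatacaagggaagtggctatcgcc
GABARAPL1: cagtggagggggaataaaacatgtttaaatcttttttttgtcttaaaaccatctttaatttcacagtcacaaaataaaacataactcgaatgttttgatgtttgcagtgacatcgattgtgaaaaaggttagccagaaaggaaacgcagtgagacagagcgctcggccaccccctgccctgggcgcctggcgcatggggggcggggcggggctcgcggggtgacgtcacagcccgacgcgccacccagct
A match is a description, not a site or a cause, and the lack of one in MAP1LC3B and GABARAPL1 says only that these letters are not in this window. Of the 10 genes with the E-box, 5 were DEGs with at least 1 TBX, as were 15 of the 22 tested genes whose window lacked it, beside 44.3% of all genes tested.

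Each TBX was then compared with the 6 controls, which the 4 comparisons share. With TBX2, 15 of 43 genes were DEGs, 12 up-regulated and 3 down-regulated; of all genes tested, 32.6% were called, 17.0% as higher and 15.6% as lower. With TBX3, 9 genes were DEGs, 8 higher and 1 lower, beside 14.9% of all genes tested (8.47% higher and 6.40% lower). With TBX4, 12 genes were DEGs, 10 higher and 2 lower, beside 13.0% of all genes (6.97% higher and 6.07% lower). With TBX5, 13 genes were DEGs, 11 higher and 2 lower, beside 12.7% of all genes (6.55% higher and 6.12% lower). The median log2 fold change of the 43 genes was 0.15 in TBX2, 0.05 in TBX3, 0.10 in TBX4 and 0.14 in TBX5, while that of all genes tested was 0.00, 0.00, -0.01 and 0.00. Values of all 3 TBX libraries lay above all 6 controls for 8 genes in TBX2, 7 in TBX3, 10 in TBX4 and 12 in TBX5 (12.9%, 8.38%, 6.84% and 7.48% of all genes tested), and below them for 1, 1, 1 and 2 genes (11.6%, 6.14%, 5.74% and 6.55%). At least 1 TBX changed 25 of the 43 genes (44.3% of all genes tested), and 18 were called in none of the 4 comparisons.

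**Figure D2:**
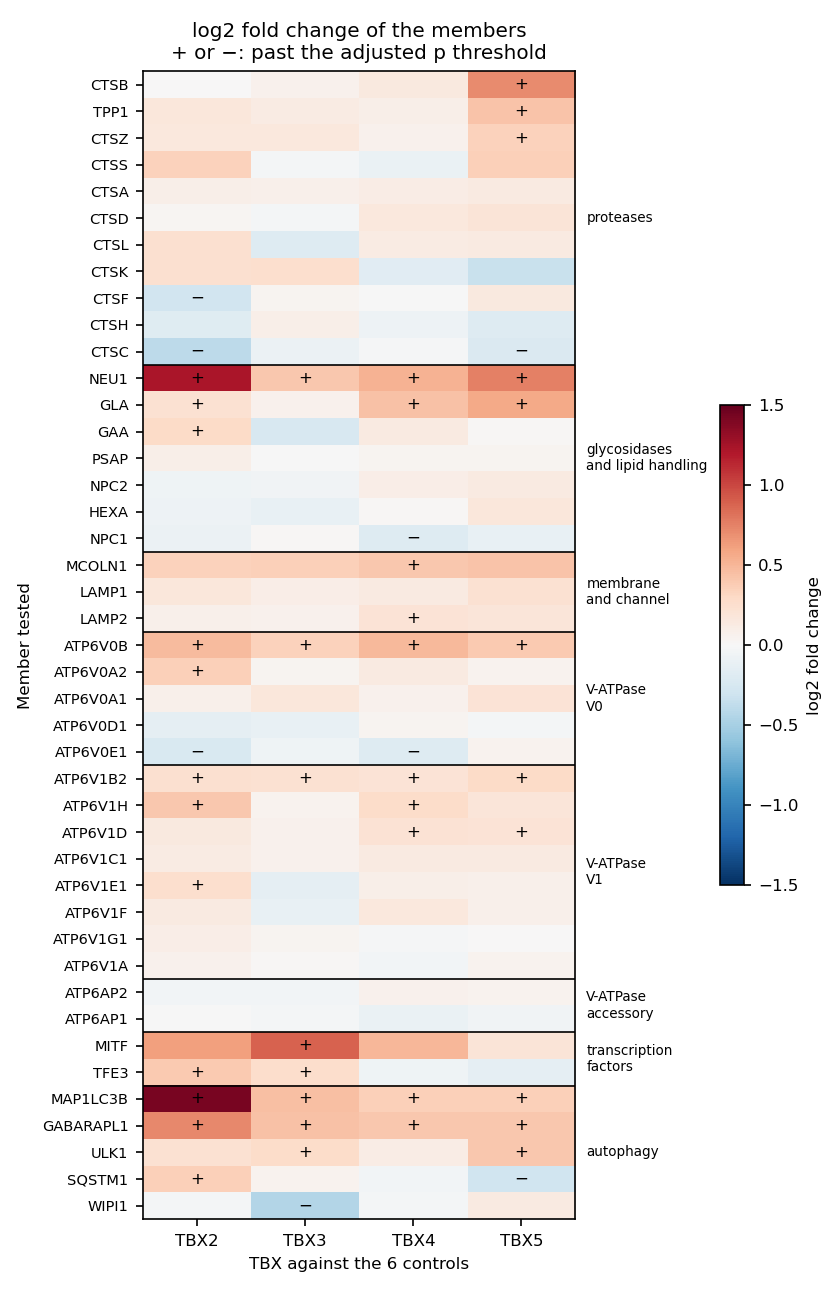
Log2 fold change of the 43 tested genes (vertical axis, by role) against the 6 controls for each TBX (horizontal axis), where the colour scale runs from lower to higher and marks show the DEGs. Fold changes run from -0.39 to 1.42 in TBX2, from -0.44 to 0.88 in TBX3, from -0.19 to 0.52 in TBX4 and from -0.33 to 0.75 in TBX5.

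These counts depended on single libraries and on the scaling. Without TBX3 replicate 3, 4 genes were DEGs with TBX3 in place of 9 (GABARAPL1, NEU1 and MAP1LC3B higher, WIPI1 lower). Without TBX4 replicate 3, the library titled 4c-TBX5, 8 genes were DEGs with TBX4 in place of 12, and these 8 (GLA, NEU1, GABARAPL1, ATP6V0B, ATP6V1B2, ATP6V1D, ATP6V1H and LAMP2) were higher. Without TBX5 replicate 1, 13 genes were DEGs with TBX5, but the calls of ATP6V0B, ATP6V1B2 and MAP1LC3B were lost and 3 other genes were called. Without EV replicate 3 the counts were 16, 8, 10 and 13 for TBX2, TBX3, TBX4 and TBX5. Scaling by library totals, which include ENSG00000266658, put the median log2 fold change of all genes at 0.01 in TBX2, -0.08 in TBX3, 0.25 in TBX4 and -0.31 in TBX5. Relative to these medians the members' medians were 0.14, 0.06, 0.11 and 0.14. Under that scaling the DEGs were 3 genes with TBX2 and 19 with TBX4, each of them higher, where TMM gave 12 higher and 3 lower with TBX2 and 10 higher and 2 lower with TBX4. With library totals edgeR called 0 genes with TBX3 in place of 9 and 0 with TBX5 in place of 13, with 1 and 2 at an unadjusted p under 0.05, where DESeq2 with its own size factors called 5 and 13. With totals that leave out ENSG00000266658, 5 genes were higher and 2 lower with TBX3. Of 57 calls, those of the members and of the further genes FLCN and MANBA with each TBX, 13 were lost with the EV libraries as the only controls, and 18 with the Ctl libraries as the only controls. DESeq2 kept 45 of these calls and missed 11. A covariate chosen after seeing the data, the share of ENSG00000266658, left 9 TBX4 calls short of the threshold. With it the fold changes went from 0.49 to 0.26 for ATP6V0B, 0.22 to 0.14 for ATP6V1D, 0.38 to 0.26 for FLCN, 0.20 to 0.16 for LAMP2 and 0.27 to 0.23 for ATP6V1H. They went from -0.19 to -0.16 for NPC1, 0.40 to 0.41 for MCOLN1 and 0.36 to 0.37 for MANBA, and stayed at 0.20 for ATP6V1B2. The fold changes below use TMM.

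**Figure D3:**
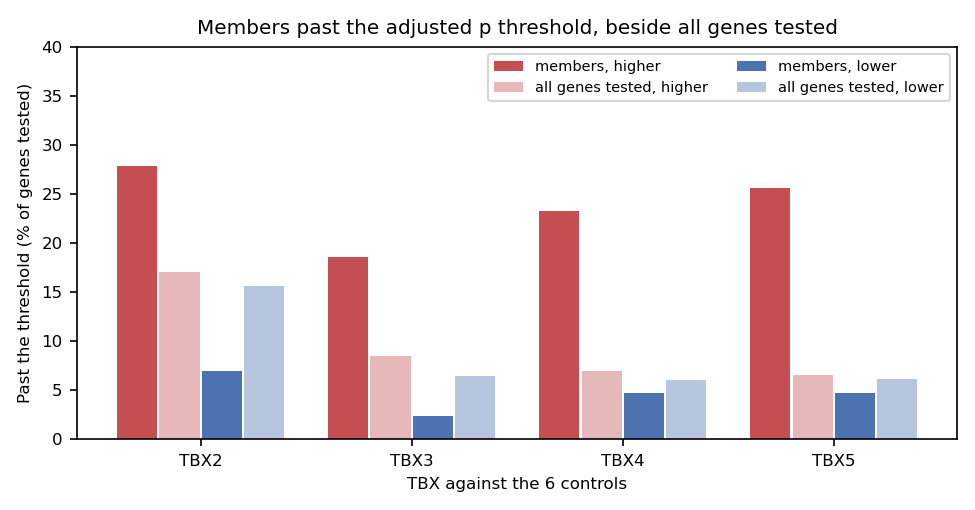
Percent of tested genes past an adjusted p of 0.1 in edgeR's quasi-likelihood test (vertical axis) for each TBX (horizontal axis), as bars for the 43 members and for all 15576 genes, higher and lower. With TBX2 the bars for all genes reach 17.0% higher and 15.6% lower, and the bars describe a list drawn up with results known.

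Among the glycosidases and lipid-handling genes, 3 of 7 were DEGs in TBX2, 1 in TBX3, 3 in TBX4 and 2 in TBX5 (42.9%, 14.3%, 42.9% and 28.6%, beside 32.6%, 14.9%, 13.0% and 12.7% of all genes tested). NEU1 (ENSG00000204386, minus strand of chromosome 6, 31825436 to 31830682 in GRCh37) encodes the sialidase that removes terminal sialic acids, and its promoter is shown above. NEU1 stood at 15.2 at the lowest, 16.5 at the median and 19.02 at the highest of the controls, in CPM. It reached 34.7, 43.9 and 37.8 CPM in TBX2, 22.3, 23.99 and 20.95 in TBX3, 26.6, 23.8 and 22.04 in TBX4 and 24.4, 27.98 and 33.3 in TBX5. Each of the 12 TBX libraries lay above the highest control, and the TBX2 libraries lay above those of the other TBXs. The log2 fold change was 1.22 ± 0.09 (SE) in TBX2, 0.40 ± 0.09 in TBX3, 0.52 ± 0.08 in TBX4 and 0.75 ± 0.10 in TBX5, with 3 of 3 libraries higher in each. The adjusted p-values in edgeR's quasi-likelihood test were 4.68e-10, 0.00308, 0.000124 and 3.77e-05. Leaving out any 1 library kept NEU1 a DEG in each of the 4 comparisons. GLA (ENSG00000102393, minus strand of chromosome X, 100648261 to 100663000 in GRCh37) encodes the galactosidase that cleaves globotriaosylceramide. It stood at 12.9 at the lowest, 15.4 at the median and 16.5 at the highest of the controls in CPM, and at 18.3, 19.1 and 15.9 in TBX2, 16.4, 13.6 and 17.4 in TBX3, 21.3, 21.8 and 19.4 in TBX4 and 23.2, 23.02 and 21.96 in TBX5. The TBX4 and TBX5 libraries lay above each control, while the TBX2 and TBX3 libraries overlapped the controls. The GLA fold change was 0.44 ± 0.08 with TBX4 (adjusted p 0.000904, edgeR's quasi-likelihood test, 3 of 3 libraries higher) and 0.57 ± 0.09 with TBX5 (adjusted p 0.000374, 3 of 3). With TBX2 it was 0.23 ± 0.10 (adjusted p 0.0846, edgeR), a call lost without Ctl replicate 1, 2 or 3, EV replicate 2 or TBX2 replicate 1 or 2 (adjusted p 0.104, 0.106, 0.142, 0.120, 0.208 and 0.321), and with TBX3 0.07 ± 0.10 (adjusted p 0.737).

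GAA, the glycosidase that degrades glycogen in lysosomes, was up-regulated by 0.29 ± 0.10 with TBX2 (edgeR adjusted p 0.0294), from 12.9 at the lowest, 15.99 at the median and 17.7 at the highest of the controls to 19.3, 20.4 and 17.5 CPM, but without TBX2 replicate 2 the adjusted p was 0.151. The TBX2 and control libraries of GAA overlapped. With TBX3, GAA moved by -0.24 ± 0.10 and was not called (edgeR adjusted p 0.138). NPC1, the membrane protein that exports cholesterol, stood at 42.5 at the lowest, 45.3 at the median and 51.4 at the highest of the controls and at 41.2, 38.3 and 41.6 CPM with TBX4, below each control. Its fold change of -0.19 ± 0.06 with TBX4 (edgeR adjusted p 0.0646) became 0.07 with library totals, where the median of all genes was 0.25, and the call was lost without Ctl replicate 1, EV replicate 2 or TBX4 replicate 1, 2 or 3 (adjusted p 0.133, 0.1003, 0.136, 0.291 and 0.113). HEXA, a hexosaminidase subunit, PSAP and NPC2 were not called with any TBX, with fold changes between -0.11 and 0.17. The 3 TBX5 libraries of NPC2 lay above the controls.

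**Figure D4:**
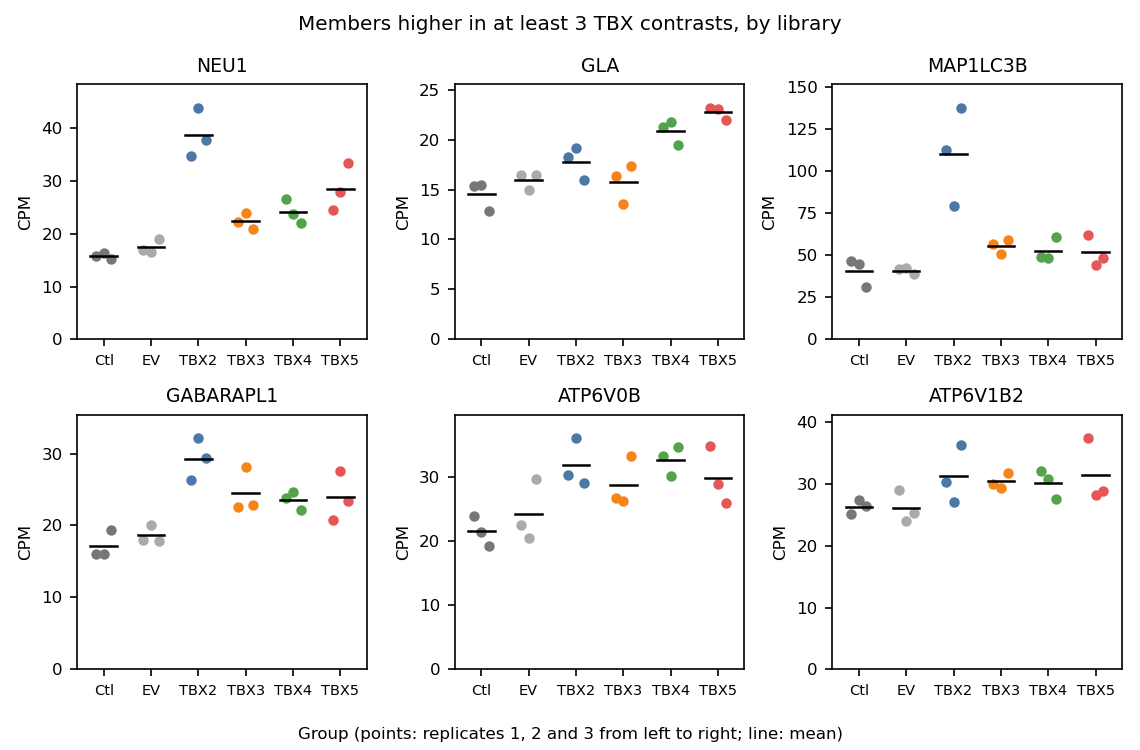
CPM (vertical axes, from 0) of NEU1, GLA, MAP1LC3B, GABARAPL1, ATP6V0B and ATP6V1B2 in each library of the 6 groups (horizontal axes), where points are replicates and lines group means. NEU1 lies between 15.2 and 19.02 CPM in the controls and between 34.7 and 43.9 CPM with TBX2, and MAP1LC3B reaches 137.5 CPM in a TBX2 library.

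Of the 11 proteases, 2 were DEGs with TBX2, both lower, and 4 with TBX5, 3 higher and 1 lower (18.2% and 36.4%, beside 32.6% and 12.7% of all genes tested), and these were the protease calls of the 4 comparisons. CTSB (ENSG00000164733), a cysteine protease that also acts outside lysosomes, was at 50.7 at the lowest, 56.2 at the median and 59.8 at the highest of the controls in CPM. It stood at 56.04, 54.2 and 56.8 CPM in TBX2, 62.1, 55.4 and 57.02 in TBX3, 63.6, 63.1 and 58.7 in TBX4 and 90.5, 86.7 and 96.8 in TBX5. The TBX5 libraries lay above each library of the other 5 groups. The fold change with TBX5 was 0.71 ± 0.06 (edgeR adjusted p 1.98e-07, 3 of 3 libraries higher), a call that no single library removed. With TBX2, TBX3 and TBX4 it was 0.00, 0.06 and 0.15, not called. CTSC, the dipeptidyl peptidase that activates granule proteases, stood at 51.6 at the lowest, 54.6 at the median and 56.99 at the highest of the controls, at 40.2, 41.8 and 42.2 CPM with TBX2 and at 47.4, 45.8 and 47.1 CPM with TBX5, both below each control. CTSC fell by 0.39 ± 0.06 with TBX2 (edgeR adjusted p 8.82e-05, 3 of 3 libraries lower) and fell by 0.22 ± 0.06 with TBX5 (adjusted p 0.0414, 3 of 3), the latter lost without TBX5 replicate 2 or 3 (adjusted p 0.137 and 0.124). With the Ctl libraries as the only controls the TBX5 change of CTSC was -0.18 (edgeR adjusted p 0.206). CTSF, another cysteine protease, fell by 0.29 ± 0.12 with TBX2 (edgeR adjusted p 0.0822), from 7.75 at the lowest, 8.87 at the median and 9.94 at the highest of the controls to 7.81, 6.74 and 7.14 CPM. The CTSF libraries overlapped, and the call was lost without Ctl replicate 2, EV replicate 1, 2 or 3 or TBX2 replicate 2 or 3 (adjusted p 0.106, 0.134, 0.118, 0.104, 0.285 and 0.165).

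The other proteases called with TBX5 were TPP1, a tripeptidyl peptidase, and CTSZ, a carboxypeptidase. TPP1 stood at 11.7 at the lowest, 13.5 at the median and 15.3 at the highest of the controls and 16.9, 17.5 and 20.3 CPM with TBX5, and CTSZ at 14.04 at the lowest, 17.3 at the median and 18.7 at the highest and 20.4, 20.8 and 23.6. Both genes lay above each control in 3 of 3 TBX5 libraries. Their fold changes were 0.43 ± 0.11 and 0.35 ± 0.10 (edgeR adjusted p 0.0159 and 0.0363), and without TBX5 replicate 3 the adjusted p-values were 0.114 and 0.179. With the Ctl libraries as the only controls the CTSZ change was 0.32 (edgeR adjusted p 0.102). CTSA, CTSD, CTSH, CTSK, CTSL and CTSS were not called with any TBX, with fold changes from -0.33 (CTSK with TBX5) to 0.36 (CTSS with TBX5). For CTSK, Ctl replicate 3 stood at 2.98 CPM and the other controls at 0.976 to 1.15 CPM. Its TBX5 libraries were at 0.888, 0.992 and 1.49 CPM, so the -0.33 depends on that control. CTSD, the marker of the lysosome lumen, moved by 0.03, -0.03, 0.16 and 0.19 with TBX2, TBX3, TBX4 and TBX5.

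The 3 membrane genes were LAMP1 and LAMP2, the most abundant glycoproteins of the lysosomal membrane, and MCOLN1, which encodes a calcium channel. LAMP1 stood at 37.5 at the lowest, 41.1 at the median and 50.2 at the highest of the controls in CPM, and at 42.6, 53.3 and 45.5 in TBX2, 44.6, 47.1 and 43.9 in TBX3, 47.6, 46.4 and 43.98 in TBX4 and 46.8, 55.2 and 47.3 in TBX5. Each TBX group overlapped the controls, of which Ctl replicate 3 was the highest. The next control, EV replicate 2 at 44.5 CPM, lay below the 3 TBX5 libraries but above 1 library each of TBX2, TBX3 and TBX4. LAMP1 fold changes were 0.17 ± 0.09, 0.10 ± 0.08, 0.13 ± 0.07 and 0.23 ± 0.09, and none passed the threshold in edgeR's quasi-likelihood test (adjusted p 0.163, 0.481, 0.329 and 0.103). LAMP2 stood at 34.6 at the lowest, 36.8 at the median and 38.3 at the highest of the controls, and at 40.3, 37.6 and 38.8 CPM in TBX2, 41.5, 37.7 and 37.1 in TBX3, 43.7, 41.7 and 42.3 in TBX4 and 45.2, 39.5 and 39.6 in TBX5. Its TBX4 and TBX5 libraries lay above each control. LAMP2 was called with TBX4 alone, at 0.20 ± 0.06 (edgeR adjusted p 0.0291; 0.19 without TBX4 replicate 1, adjusted p 0.122, and 0.16 with the covariate, adjusted p 0.292); with TBX5 it was 0.18 ± 0.07 (adjusted p 0.114). The TBX4 minus TBX5 difference of LAMP2 was 0.03 ± 0.07 (edgeR adjusted p 0.968), not past the threshold. MCOLN1, whose promoter is shown above, changed by 0.34 ± 0.16, 0.36 ± 0.16, 0.40 ± 0.15 and 0.43 ± 0.18. It was called with TBX4 (edgeR adjusted p 0.0857), from 3.53 at the lowest, 4.14 at the median and 5.33 at the highest of the controls to 4.81, 6.07 and 6.02 CPM with overlapping libraries, and lost that call without Ctl replicate 1 or 3, EV replicate 1, 2 or 3 or TBX4 replicate 2 or 3 (adjusted p 0.149, 0.125, 0.138, 0.106, 0.1, 0.289 and 0.233).

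Of the V-ATPase genes, 15 of 16 were tested, of which 5 were higher and 1 lower in TBX2, 2 higher in TBX3, 4 higher and 1 lower in TBX4 and 3 higher in TBX5, beside 32.6%, 14.9%, 13.0% and 12.7% of all genes tested. ATP6V0B (ENSG00000117410, plus strand of chromosome 1, 44440159 to 44443967 in GRCh37), a proteolipid of the membrane rotor with 2 E-boxes in the promoter shown above, stood at 19.3 at the lowest, 21.99 at the median and 29.7 at the highest of the controls in CPM. It reached 30.4, 36.2 and 29.1 in TBX2, 26.7, 26.3 and 33.4 in TBX3, 33.3, 30.3 and 34.8 in TBX4 and 34.95, 28.97 and 26.1 in TBX5. The TBX4 libraries alone lay above each control, and the others overlapped EV replicate 3, the highest control. ATP6V0B changed by 0.47 ± 0.11, 0.34 ± 0.11, 0.49 ± 0.09 and 0.39 ± 0.12 with edgeR adjusted p-values of 0.00238, 0.0445, 0.00119 and 0.039; without TBX3 replicate 3 the TBX3 change was 0.18 (adjusted p 0.425), and without TBX5 replicate 1 the TBX5 change was 0.24 (0.305). With the EV libraries as the only controls the TBX3 and TBX5 calls were lost, at 0.24 (edgeR adjusted p 0.238) and 0.30 (0.189). The TBX4 call was lost with the share of ENSG00000266658 as a covariate, a fit chosen after seeing the data, at 0.26 (0.150). ATP6V1B2 (ENSG00000147416), the non-catalytic nucleotide-binding subunit of V1, stood at 23.9 at the lowest, 25.9 at the median and 29.02 at the highest of the controls, and at 30.3, 27.2 and 36.4 CPM in TBX2, 30.01, 29.4 and 31.9 in TBX3, 32.04, 30.8 and 27.6 in TBX4 and 37.5, 28.2 and 28.8 in TBX5. The TBX3 libraries alone lay above each control. ATP6V1B2 changed by 0.24 ± 0.09, 0.23 ± 0.07, 0.20 ± 0.07 and 0.29 ± 0.09 (edgeR adjusted p 0.0433, 0.0463, 0.0743 and 0.0451). Each of these calls was lost in at least 1 fit: without TBX2 replicate 3 (0.14, adjusted p 0.297), without TBX3 replicate 3 (0.18, 0.252), without TBX5 replicate 1 (0.13, 0.496), and with TBX4 without Ctl replicate 1, EV replicate 2 or TBX4 replicate 1 or 2 (0.119, 0.138, 0.299 and 0.212). With the Ctl libraries as the only controls the ATP6V1B2 call was lost with each TBX (edgeR adjusted p 0.124, 0.128, 0.155 and 0.150). With the EV libraries as the only controls it was lost with TBX4 (0.144) and TBX5 (0.109). DESeq2 did not call ATP6V1B2 with TBX3 (adjusted p 0.107) or TBX4 (0.173).

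ATP6V1H (ENSG00000047249), the V1 subunit H, which the pump needs for its activity, stood at 29.95 at the lowest, 33.7 at the median and 34.7 at the highest of the controls, and at 41.8, 45.6 and 45.1 CPM in TBX2, 31.1, 29.7 and 40.4 in TBX3, 39.4, 38.7 and 42.5 in TBX4 and 37.95, 38.5 and 36.7 in TBX5. The libraries of TBX2, TBX4 and TBX5 lay above each control. It was called with TBX2 at 0.41 ± 0.07 (edgeR adjusted p 9.24e-05) and with TBX4 at 0.27 ± 0.06 (adjusted p 0.00778, and 0.23 with the covariate, adjusted p 0.128), and not with TBX5 at 0.18 ± 0.07 (adjusted p 0.123). TBX2 also up-regulated the stalk subunit ATP6V1E1, by 0.25 ± 0.07 (edgeR adjusted p 0.00873), and ATP6V0A2, a stator isoform of Golgi and endosomes, by 0.36 ± 0.08 (adjusted p 0.00269), each with 3 of 3 libraries above the controls. ATP6V1D, a subunit of the central shaft, was called with TBX4 at 0.22 ± 0.06 (edgeR adjusted p 0.0237; 0.18 without TBX4 replicate 1, adjusted p 0.142, and 0.14 with the covariate, adjusted p 0.367) and with TBX5 at 0.21 ± 0.07 (adjusted p 0.0562; 0.180 and 0.115 without TBX5 replicate 2 or 3), but the TBX5 value was -0.11 with library totals, where the median of all genes was -0.31. The TBX5 call of ATP6V1D was also lost with the EV or the Ctl libraries as the only controls (edgeR adjusted p 0.169 and 0.1003). ATP6V0E1, a small V0 subunit, fell by 0.23 ± 0.08 with TBX2 (edgeR adjusted p 0.0355; 0.116 and 0.141 without TBX2 replicate 2 or 3) and fell by 0.19 ± 0.07 with TBX4 (adjusted p 0.093), from 31.8 at the lowest, 36.04 at the median and 38.2 at the highest of the controls to 32.5, 29.5 and 28.4 CPM and 33.4, 30.2 and 29.5 CPM. With the Ctl libraries as the only controls both ATP6V0E1 calls were lost, at -0.16 with TBX2 (edgeR adjusted p 0.242) and -0.12 with TBX4 (0.406). The libraries of ATP6V0E1 overlapped; the TBX4 value was 0.06 with library totals, where the median of all genes was 0.25, and its call was lost without Ctl replicate 2, EV replicate 1, 2 or 3 or TBX4 replicate 2 or 3 (adjusted p 0.150, 0.120, 0.157, 0.178, 0.292 and 0.305). The V0 subunits ATP6V0A1 and ATP6V0D1, the V1 subunits ATP6V1A, ATP6V1C1, ATP6V1F and ATP6V1G1, and the accessory subunits ATP6AP1 and ATP6AP2 were not called with any TBX, with fold changes from -0.13 to 0.20. Pseudogenes of ATP6V0E1 (4) and ATP6V1E1 (3) make their counts uncertain.

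Of the 3 transcription factors that bind the CLEAR element, 2 were tested. TFE3 (ENSG00000068323, minus strand of chromosome X, 48886237 to 48900936 in GRCh37) stood at 26.4 at the lowest, 29.4 at the median and 34.3 at the highest of the controls in CPM, and at 41.7, 35.6 and 38.3 in TBX2, 35.1, 34.9 and 35.9 in TBX3, 26.2, 30.8 and 27.1 in TBX4 and 25.5, 23.4 and 32.2 in TBX5. The TBX2 and TBX3 libraries lay above each control, and the TBX4 and TBX5 libraries overlapped the controls. TFE3 changed by 0.39 ± 0.08 with TBX2 (edgeR adjusted p 0.00119), 0.26 ± 0.08 with TBX3 (0.0268; 0.118 without TBX3 replicate 3), -0.07 ± 0.08 with TBX4 (0.657) and -0.13 ± 0.10 with TBX5 (0.473). With the EV libraries as the only controls the TBX3 call of TFE3 was lost, at 0.19 (edgeR adjusted p 0.158). MITF (ENSG00000187098, plus strand of chromosome 3, 69788607 to 70017487 in GRCh37), the melanocyte factor of the same family, stood near the count floor at 0.490 at the lowest, 0.846 at the median and 1.18 at the highest of the controls, and at 1.61, 1.41 and 0.812 CPM in TBX2, 1.57, 1.81 and 1.48 in TBX3, 1.12, 1.56 and 0.926 in TBX4 and 0.777, 0.794 and 1.49 in TBX5. The TBX3 libraries alone lay above each control. MITF was called with TBX3 at 0.88 ± 0.29 (edgeR adjusted p 0.0522), a call lost without TBX3 replicate 1, 2 or 3 (0.116, 0.149 and 0.115) and, at 0.60, with the EV libraries as the only controls (0.256). TFEB (ENSG00000112561, minus strand of chromosome 6, 41651716 to 41703997 in GRCh37), not tested, stood at 0.490 at the lowest, 0.784 at the median and 1.09 at the highest of the controls, and at 0.574, 0.403 and 0.649 CPM in TBX2, 0.524, 0.453 and 0.492 in TBX3, 0.481, 0.934 and 0.370 in TBX4 and 0.666, 0.992 and 1.12 in TBX5. The TFEB libraries of each TBX overlapped the controls. These are RNA levels, and the location of the proteins in the cell was not measured.

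Of the 5 autophagy genes, 3 were higher in TBX2, 3 higher and 1 lower in TBX3, 2 higher in TBX4 and 3 higher and 1 lower in TBX5, beside 32.6%, 14.9%, 13.0% and 12.7% of all genes tested. MAP1LC3B (ENSG00000140941, plus strand of chromosome 16, 87417559 to 87438385 in GRCh37) encodes an LC3 protein that is joined to lipid on autophagosome membranes. It stood at 31.04 at the lowest, 42.0 at the median and 46.4 at the highest of the controls in CPM, and at 112.5, 79.3 and 137.5 in TBX2, 56.7, 50.5 and 58.7 in TBX3, 48.8, 48.2 and 60.6 in TBX4 and 62.3, 44.5 and 48.2 in TBX5. The libraries of TBX2, TBX3 and TBX4 lay above each control, those of TBX2 also above all other groups, and TBX5 replicate 2 lay within the controls. MAP1LC3B changed by 1.42 ± 0.12, 0.45 ± 0.09, 0.36 ± 0.09 and 0.36 ± 0.10 with edgeR adjusted p-values of 5.93e-09, 0.0013, 0.0102 and 0.0335; the TBX4 call was lost without TBX4 replicate 3 (0.116) and the TBX5 call without TBX5 replicate 1 (0.19, adjusted p 0.338). The TBX5 call of MAP1LC3B was also lost with the Ctl libraries as the only controls (edgeR adjusted p 0.151). GABARAPL1 (ENSG00000139112, plus strand of chromosome 12, 10365057 to 10375727 in GRCh37) encodes a GABARAP protein of the same kind. It stood at 15.98 at the lowest, 17.9 at the median and 20.1 at the highest of the controls, and at 26.3, 32.2 and 29.4 CPM in TBX2, 22.5, 28.1 and 22.9 in TBX3, 23.8, 24.6 and 22.2 in TBX4 and 20.8, 27.6 and 23.5 in TBX5. Each of the 12 TBX libraries of GABARAPL1 lay above the highest control. Its TBX2 libraries lay above the TBX4 libraries and overlapped those of TBX3 and TBX5. TBX2 minus TBX3, TBX4 and TBX5 was 0.28 ± 0.11, 0.32 ± 0.10 and 0.32 ± 0.11 (edgeR adjusted p 0.0901, 0.0521 and 0.0772), and among the 4 TBX groups the adjusted p was 0.0710. GABARAPL1 changed by 0.72 ± 0.09, 0.44 ± 0.09, 0.40 ± 0.08 and 0.40 ± 0.10 (edgeR adjusted p 2.43e-06, 0.00251, 0.00216 and 0.0179); the TBX5 call alone was lost without 1 library, TBX5 replicate 2 (0.137). On the RPKM scale, the mean level of MAP1LC3B was 19.0 in the controls and 51.1 with TBX2, and that of GABARAPL1 was 9.51 in the controls.

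SQSTM1 (ENSG00000161011, plus strand of chromosome 5, 179233398 to 179265078 in GRCh37) stood at 116.5 at the lowest, 144.3 at the median and 152.3 at the highest of the controls in CPM, and at 168.3, 204.2 and 157.1 in TBX2, 139.7, 142.6 and 147.6 in TBX3, 135, 138.9 and 129 in TBX4 and 108.4, 114.5 and 114.3 in TBX5. The TBX2 libraries lay above each control and the TBX5 libraries below each control. SQSTM1 was up-regulated by 0.36 ± 0.09 with TBX2 (edgeR adjusted p 0.00366, 3 of 3 libraries higher) and fell by 0.30 ± 0.08 with TBX5 (adjusted p 0.0225, 3 of 3 lower). No single library removed these calls, but with the Ctl libraries as the only controls the TBX5 change was -0.18 (adjusted p 0.256). WIPI1 (ENSG00000070540, minus strand of chromosome 17, 66417089 to 66453654 in GRCh37), a phosphoinositide-binding protein of forming autophagosomes, stood at 5.33 at the lowest, 6.07 at the median and 7.64 at the highest of the controls, and at 7.35, 5.33 and 5.36 CPM in TBX2, 4.06, 4.22 and 4.99 in TBX3, 6.57, 7.01 and 4.44 in TBX4 and 6.99, 5.16 and 8.002 in TBX5. The TBX3 libraries lay below each control. WIPI1 fell by 0.44 ± 0.15 with TBX3 (edgeR adjusted p 0.066), a call lost without Ctl replicate 3, EV replicate 2 or TBX3 replicate 1 or 2 (0.125, 0.106, 0.206 and 0.172). ULK1, the kinase that starts autophagy, stood at 11.7 at the lowest, 13.1 at the median and 13.98 at the highest of the controls, at 17.4, 14.3 and 15.1 CPM with TBX3 and at 17.9, 16.3 and 16.2 CPM with TBX5, both above each control. Its fold changes were 0.28 ± 0.09 (edgeR adjusted p 0.0568; 0.112, 0.271 and 0.112 without EV replicate 3 or TBX3 replicate 1 or 3) and 0.40 ± 0.10 (adjusted p 0.0135, lost with no single library).

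Members called in the same direction in at least 3 of the 4 comparisons were NEU1, GLA, ATP6V0B, ATP6V1B2, MAP1LC3B and GABARAPL1. Of these, 5 were higher in 4 of 4 (1.21% of all genes tested). Without TBX3 replicate 3 this number was 3 (NEU1, GABARAPL1 and MAP1LC3B), and without TBX5 replicate 1 it was 2 (NEU1 and GABARAPL1). ATP6V1B2 missed the threshold with each TBX when the Ctl libraries were the only controls, and with TBX3 and TBX4 in DESeq2. Because the comparisons share their controls, these counts are not independent of one another.

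Differences between the TBXs were tested directly, in 1 fit of the 18 libraries. The TBX2 and TBX4 plasmids carried a Flag tag, the TBX3 and TBX5 plasmids an HA tag, and the TBX5 cDNA was mouse. The level of the transfected gene also differed between groups. Effects of the protein, of the construct and of its level cannot be told apart in these pairs. edgeR's quasi-likelihood F test among the 4 TBX groups called 14 of 43 genes, beside 22.7% of all genes tested. The smallest adjusted p-values in that F test were those of CTSB (3.21e-08), MAP1LC3B (1.77e-06) and NEU1 (4.53e-06), followed by SQSTM1 (1.69e-05) and TFE3 (0.000639). ATP6V0B (0.714) and ATP6V1B2 (0.908) were not called. In pairs, TBX2 and TBX3 differed in 10 genes, 9 of them higher with TBX2, beside 15.5% of all genes (8.01% higher and 7.51% lower). TBX2 and TBX4 differed in 6, 5 of them higher with TBX2, beside 12.3% (6.66% higher and 5.61% lower), and TBX2 and TBX5 in 10, 6 of them higher with TBX2, beside 12.1% (6.45% higher and 5.69% lower). TBX3 and TBX4 differed in 4 genes, 1 of them higher with TBX3, beside 9.97% of all genes (5.95% higher and 4.02% lower), TBX3 and TBX5 in 5, 2 of them higher with TBX3, beside 7.41% (4.30% higher and 3.11% lower), and TBX4 and TBX5 in 1, CTSB, beside 0.539%. CTSB was lower with TBX4 than with TBX5, at -0.56 ± 0.07 (edgeR adjusted p 3.3e-05), and the TBX2 minus TBX5 and TBX3 minus TBX5 values were -0.72 ± 0.07 and -0.65 ± 0.07 (adjusted p 4.51e-08 and 1.01e-06), without overlap between the libraries of each pair.

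MAP1LC3B was higher with TBX2 than with TBX3, TBX4 and TBX5 by 0.97 ± 0.14, 1.05 ± 0.14 and 1.05 ± 0.15 (edgeR adjusted p 2.9e-05, 7.81e-06 and 1.44e-05), in 3 of 3 libraries. NEU1 was higher with TBX2 by 0.81 ± 0.10, 0.69 ± 0.10 and 0.47 ± 0.11 in the same pairs (edgeR adjusted p 3.25e-06, 2.34e-05 and 0.00442), also in 3 of 3. These differences set the TBX2 libraries apart from those of each other TBX, whether through the protein, its construct or its level was not tested. SQSTM1 was higher with TBX2 than with TBX5 by 0.66 ± 0.08 (edgeR adjusted p 2.75e-06) and with TBX3 than with TBX5 by 0.35 ± 0.08 (adjusted p 0.0108), with no overlap of libraries in either pair. The TBX4 minus TBX5 difference of SQSTM1, 0.26 ± 0.08, did not pass in edgeR's test (adjusted p 0.324). TFE3 was higher with TBX2 than with TBX4 and TBX5 by 0.45 ± 0.09 and 0.52 ± 0.10 (edgeR adjusted p 0.0023 and 0.0015) and with TBX3 than with TBX4 and TBX5 by 0.33 ± 0.09 and 0.39 ± 0.10 (adjusted p 0.0316 and 0.0233). GLA was lower with TBX3 than with TBX4 and TBX5, at -0.38 ± 0.10 and -0.50 ± 0.11 (edgeR adjusted p 0.018 and 0.004), with no overlap of libraries. CTSC was lower with TBX2 than with TBX3 and TBX4, at -0.30 ± 0.07 and -0.38 ± 0.07 (edgeR adjusted p 0.00476 and 0.000549). GAA was higher with TBX2 than with TBX3 by 0.53 ± 0.11 (edgeR adjusted p 0.00105).

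**Figure D5:**
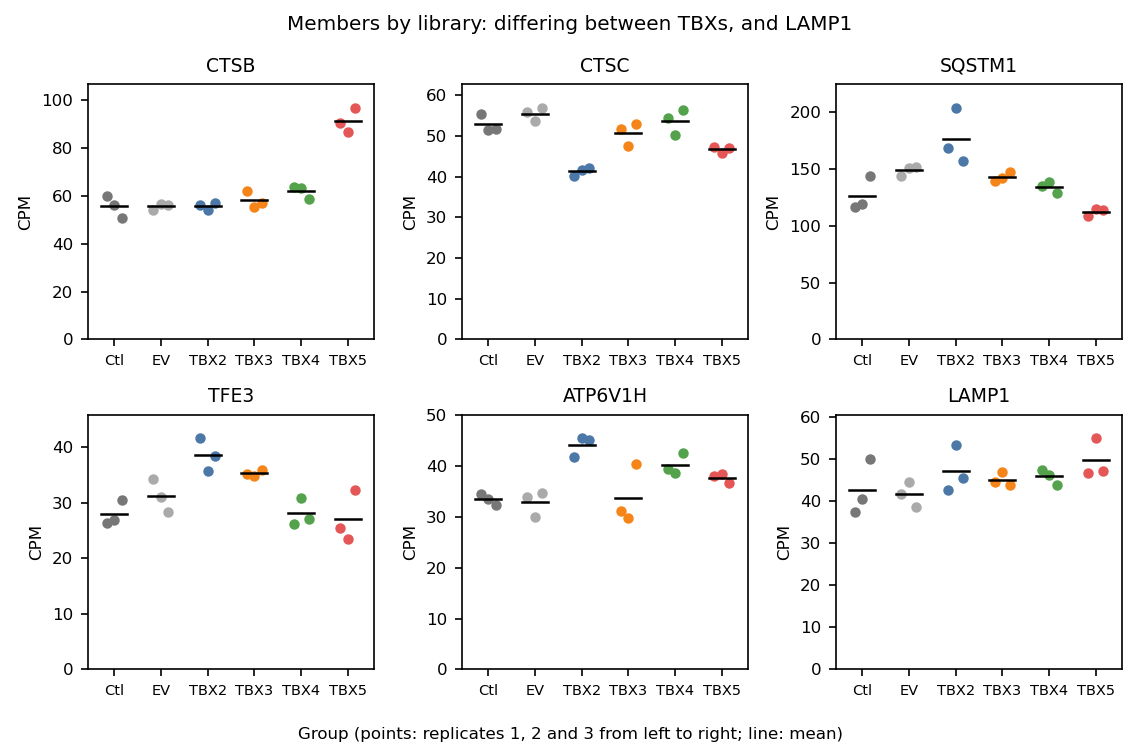
CPM (vertical axes, from 0) of CTSB, CTSC, SQSTM1, TFE3, ATP6V1H and LAMP1 in each library of the 6 groups (horizontal axes), where points are replicates and lines group means. CTSB lies between 86.7 and 96.8 CPM with TBX5 and between 50.7 and 63.6 CPM in the other 5 groups.

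The EV and Ctl libraries were compared to see whether the pooled controls differed. In edgeR's quasi-likelihood test 0 of 43 genes were called (0.385% of all genes tested), with 2 at an unadjusted p under 0.05, and DESeq2 called 0, with 1 at an unadjusted p under 0.05. The 2 genes were SQSTM1, higher in EV by 0.24 ± 0.07 (edgeR adjusted p 0.219), and CTSL, higher by 0.23 ± 0.10 (adjusted p 0.514). SQSTM1 was at 116.5, 119.5 and 144.4 CPM in Ctl and 144.3, 151.4 and 152.3 CPM in EV, and CTSL at 22.7, 21.6 and 31.5 and 28.3, 30.1 and 29.9. Without Ctl replicate 3, edgeR's test called both genes, at 0.34 for SQSTM1 (adjusted p 0.00281) and 0.42 for CTSL (adjusted p 0.0172).

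A further 153 genes of the same system were described beside the members, of which 140 were tested. With TBX2, 33 were higher and 12 lower (32.1% called, beside 32.6% of all genes tested), and with TBX3, 14 and 3 (12.1%, beside 14.9%). With TBX4, 18 were higher and 3 lower (15.0%, beside 13.0%), and with TBX5, 17 and 1 (12.9%, beside 12.7%). At least 1 TBX changed 63 of them, where 44.3% of all genes tested were called in at least 1 comparison. Of 35 tested hydrolases and activators (38 listed), 9 were higher and 2 lower in TBX2, 1 higher in TBX3, 6 higher and 1 lower in TBX4 and 6 higher in TBX5. Of 17 tested membrane proteins (18 listed), 5 were higher and 2 lower with TBX2, 4 higher with TBX4 and 2 higher with TBX5. Of 10 tested V-ATPase subunits and assembly factors (15 listed), 2 were higher and 1 lower with TBX2, and 1 higher and 1 lower with TBX3. Among 9 genes that sort proteins to the lysosome, 1 was lower with TBX2, 1 lower with TBX4 and 1 higher with TBX5. Among 12 genes of lysosome fusion and positioning, 2 were higher and 1 lower in TBX2, 1 higher and 2 lower in TBX3, 1 higher in TBX4 and 1 higher in TBX5. Among 13 genes of nutrient sensing at the lysosome, 3 were higher in TBX2, 3 higher in TBX3, 2 higher and 1 lower in TBX4 and 1 higher in TBX5. Of 32 tested core autophagy genes (34 listed), 7 were higher and 5 lower in TBX2, 6 higher in TBX3, 3 higher in TBX4 and 6 higher and 1 lower in TBX5. Of 9 tested autophagy receptors (10 listed), 4 were higher with TBX2, 1 with TBX3 and 1 with TBX4, and of 3 tested transcription factors (4 listed), 1 was higher with each of TBX2, TBX3 and TBX4. With TMM scaling in edgeR, the genes higher with each of the 4 TBXs were FLCN and MANBA. DESeq2 did not call FLCN with TBX5 (adjusted p 0.198) or MANBA with TBX3 (0.212). In edgeR these 2 calls were also lost with the EV libraries as the only controls (adjusted p 0.264 and 0.162). They were lost as well with the Ctl libraries as the only controls (0.136 and 0.238). FLCN (ENSG00000154803), which encodes folliculin of the nutrient-sensing complex at the lysosome, stood at 11.9 at the lowest, 12.1 at the median and 14.2 at the highest of the controls in CPM, and at 20.8, 18.01 and 18.02 in TBX2, 17.2, 16.8 and 18.1 in TBX3, 15.9, 18.8 and 14.6 in TBX4 and 16.6, 13.3 and 15.8 in TBX5. The TBX2, TBX3 and TBX4 libraries of FLCN lay above each control, and TBX5 replicate 2 lay within the controls. FLCN changed by 0.59 ± 0.09, 0.47 ± 0.09, 0.38 ± 0.09 and 0.29 ± 0.11 (edgeR adjusted p 6.25e-05, 0.00135, 0.01 and 0.0943). The TBX4 call was lost without TBX4 replicate 2 (0.130), the TBX5 call without Ctl replicate 1, 2 or 3, EV replicate 1 or 2 or TBX5 replicate 1 or 3 (0.136, 0.144, 0.111, 0.133, 0.140, 0.384 and 0.226), and the TBX5 value was -0.01 with library totals, where the median of all genes was -0.31. MANBA (ENSG00000109323), a mannosidase, stood at 8.80 at the lowest, 8.88 at the median and 9.76 at the highest of the controls, and at 12.1, 11.6 and 11.9 CPM in TBX2, 12.1, 9.50 and 11.3 in TBX3, 11.9, 10.98 and 12.2 in TBX4 and 10.8, 12.7 and 14.3 in TBX5. The TBX2, TBX4 and TBX5 libraries of MANBA lay above each control, and TBX3 replicate 2 lay within the controls. MANBA changed by 0.38 ± 0.10, 0.28 ± 0.11, 0.36 ± 0.09 and 0.44 ± 0.12 (edgeR adjusted p 0.00719, 0.0921, 0.0165 and 0.0198). Its TBX3 call was lost without Ctl replicate 1 or 3, EV replicate 1, 2 or 3 or TBX3 replicate 1 or 3 (0.124, 0.126, 0.112, 0.130, 0.141, 0.301 and 0.283), and its TBX5 call without TBX5 replicate 3 (0.147). CACGTG was present in 21 of 115 promoter windows of the further genes (18.3%), and GGTGTGA in 0.87% of them.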

How the data were processed

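RNA-seq counts of 18 NCI-H1299 libraries (6 groups of 3) were used. The deposited files hold integer counts per gene, which the authors made with bcl2fastq 1.8.4, STAR 2.3.0 on GRCh37 and featureCounts at default settings. The 45 symbols were matched to Ensembl identifiers with GENCODE 44; 45 matched. Genes with over 5 counts in each of 10 or more libraries were fitted with edgeR 4.0.16 (R 4.3.3) by TMM scaling and its quasi-likelihood F test: each TBX against the 6 pooled controls, EV against Ctl, and the 4 TBX groups against each other in 1 fit. Calls used a Benjamini-Hochberg adjusted p under 0.1 over all genes tested. Library totals were 7365221 to 11743179 counts.

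Members and further lists were chosen with earlier results of these data known. The further lists were other V-ATPase subunits, hydrolases, membrane proteins, sorting, fusion, nutrient sensing, core autophagy, receptor and transcription factor genes. Values by library were planned for members called the same way in at least 3 of the 4 TBX comparisons and for the 3 largest changes called with each TBX. They were also planned for the 3 smallest p-values among TBXs and for TFEB, TFE3, MITF, LAMP1 and LAMP2. Up to 6 further genes called the same way with each TBX were added. SQSTM1, CTSC, CTSD, CTSF, CTSL, CTSZ, TPP1, GAA, NPC1, MCOLN1, ATP6V1H, ATP6V1E1, ATP6V0A2, ATP6V1D, ATP6V0E1 and ULK1 were described in more detail after their values were seen. Alternatives were DESeq2 1.42.0, other scalings and filters, a replicate block, each kind of control alone, 1 fit of all libraries, a covariate and leaving out each library. RPKM used the length of the Ensembl canonical transcript. Reads and protein sequences were not used, and the promoter table held no window for 11 members.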

Additional observations from a re-analysis of the deposited data

Results flagged for a closer look

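CTSK, a collagen-degrading protease, had 1 control far from the others: Ctl replicate 3 stood at 2.98 CPM (2.975 in full), while the nearest of the other 5 controls was at 1.15 CPM and the lowest at 0.976 CPM. CTSK is near the count floor, with 30 counts in that library and 10 to 18 in the other controls. The gap was 0.914 of the range of the 6 controls, above Dixon's 95% critical value for 6 values. Chance marks about 1 in 20 groups in this way. The rule was applied to the controls of all 43 tested genes and marked CTSK alone. Among that many genes, a mark by chance is not unusual. The cause was not tested.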

How the results depend on the processing

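The largest shifts came with scaling by library totals, where edgeR's test called 3 genes with TBX2, 19 with TBX4 and 3 among the TBX groups; it called 0 with TBX3 and 0 with TBX5, with 1 and 2 at an unadjusted p under 0.05, where DESeq2 called 5 with TBX3 and 13 with TBX5. Library totals also put the median of all genes at 0.25 with TBX4 and at -0.31 with TBX5. The sign changed there for NPC1 (0.07) and ATP6V0E1 (0.06) with TBX4, still below that median, and for ATP6V1D (-0.11) and FLCN (-0.01) with TBX5, still above it. DESeq2 called 5 genes with TBX3, and with the Ctl libraries as the only controls 7 were called with TBX5. The share of ENSG00000266658 as a covariate, chosen after seeing the data, left 5 called with TBX4. Lost members had changes of 0.41 (MCOLN1), 0.26 (ATP6V0B), 0.23 (ATP6V1H), 0.20 (ATP6V1B2), 0.16 (LAMP2), 0.14 (ATP6V1D) and -0.16 (NPC1) there. In each case the cause was not tested.

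Leaving out 1 library at a time, the counts ran from 13 to 19 with TBX2, 4 to 12 with TBX3, 8 to 12 with TBX4, 9 to 14 with TBX5, 11 to 14 among the TBX groups and 0 to 2 between EV and Ctl. The other counts over the alternatives named in the methods were within 1.5 times those reported. With replicate number as a block, the counts were 13, 9, 10 and 14 for TBX2, TBX3, TBX4 and TBX5, 14 among them, and 0 between EV and Ctl (2 at an unadjusted p under 0.05; DESeq2 without the block called 0). For 5 of 18 libraries, the mean correlation with libraries of other groups was highest for their own replicate letter. These correlations were of deviations from the group means. They do not settle whether the letters pair libraries, which the labels do not say.

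Of 1138 alternative values for 57 pairs of a gene and a TBX, 935 had the same direction and stayed past the threshold, 199 had the same direction and missed it, and 4 had the other sign, which are those named above under library totals. At 7365221 counts in the smallest library, MITF, TFEB, CTSS and CTSK lie near the count floor, which limits what can be said of them.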
